A study of Mus musculus with 6 samples.

Results

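Oligodendrocytes are the myelin-forming glia of the brain, and 30 genes of their lineage were read out of the cerebral cortex of mice treated with lipopolysaccharide (LPS). The genes were taken by name from a list of lineage and myelin genes, not by any measured value. All 30 were found among the 49315 genes of the deposited tables, and all 30 passed the filter on low counts that left 17185 genes for testing. They were ordered by role: 2 precursor genes, 5 lineage transcription factors, 2 genes of newly formed oligodendrocytes, and 21 genes of mature cells. The mature set held 10 myelin proteins, 4 enzymes of myelin lipid metabolism and 7 other oligodendrocyte-enriched genes.

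Oligodendrocyte precursors divide under the growth factor PDGF-A, which they sense through the receptor Pdgfra, and they carry the proteoglycan NG2 on their surface. When they leave the cycle they pass through a brief newly formed stage and then switch on the genes of compact myelin, the lipid-rich sheath around axons. Sox10 and Olig2 act through the whole lineage, and Myrf drives the last step to the myelinating cell.

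The series compared 2 groups of 3 libraries each, from the cortex of wild type mice. In the shScr group an AAV-PHP.eB vector carried GFP and a scrambled, non-silencing shRNA under a Gfap promoter. In the shFabp7 group the same kind of vector carried an shRNA against Fabp7, a lipid carrier of astrocytes that radial glia and oligodendrocyte precursors are also known to make. Every mouse of both groups received the vector into the retro-orbital sinus at 21 days of age and then, from 4 months of age, LPS at 1 mg/kg once weekly for 3 weeks, with the cortex collected 24 h after the final injection. The Gfap promoter is active mainly in astrocytes, so the vector was not directed at oligodendrocytes. No group without LPS was analysed here, so nothing is known here of what LPS alone did. The labels do not say that the libraries of a group came from separate animals, and p-values therefore measure the spread between these libraries. In RNA of whole tissue, fewer cells of a type and less RNA per cell cannot be told apart.

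Total counts ranged from 16914012 to 18991235 per library. Fabp7 was at 15.2 to 26.3 CPM (read counts relative to library size) in shScr and 2.49 to 5.56 CPM in shFabp7. Its log2 fold change of -2.31 (SE 0.35) left 20.2% of the shScr level, with an adjusted p of 0.0704 in edgeR's quasi-likelihood test and 5.23e-13 in DESeq2. Sex was not in the labels, and Xist divided the libraries unequally between the groups: it was at 769 to 954 CPM in 1 shScr and 2 shFabp7 libraries and at 2.34 to 4.18 CPM in the other 3. The 3 libraries of a group were therefore not all repeats of 1 sample. shFabp7 library 2 held both Xist, at 769 CPM, and reads of 4 Y-linked genes, at 13.6 CPM in sum. The summed level of 10 excitatory neuron markers was 4152, 5566 and 5395 CPM in shScr libraries 1 to 3, lowest in library 1. It was 6361, 6896 and 6040 CPM in shFabp7 libraries 1 to 3, each above every shScr sum. Summed striatal markers were at 1324 CPM in shScr library 1 and 1640.2 CPM in shFabp7 library 3, against 510.1 to 789.9 CPM elsewhere. Summed hippocampal markers were at 132.5 CPM in shScr library 3 and 41.3 to 51.9 CPM elsewhere.

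No difference between the groups passed the test for any gene of the lineage, from precursor receptors to myelin proteins. None of the 30 genes passed the threshold of 0.05 after adjustment over all genes tested (edgeR, 0 of 30; of all tested genes 0.116% passed, 0.0582% higher and 0.0582% lower). DESeq2 also called 0 of 30, where 4.49% of the genes it tested passed. With no filter on low counts edgeR called 3 of the 30 (Pdgfra lower, Gpr37 lower and Olig2 higher) and 1617 genes in all. The number of genes tested in that fit is not given here, so these counts have no share over all genes beside them. At an unadjusted p under 0.05, edgeR gave 6 of 30 (20%), against 16.8% of all tested genes. The 5 with lower values in shFabp7 were Pdgfra, Cspg4, Enpp6, Opalin and Gpr37, and the 1 with higher values was Olig2; of all tested genes 8.32% were lower and 8.44% higher at that p. The groups did not overlap for 8 of 30 genes (26.7%), against 22.9% of all tested genes. In shFabp7 7 were lower and 1 was higher, against 11.5% and 11.4% of all. Both shares over either direction lay near the background. By direction, both lower counts were above the share of all tested genes and both higher counts below it, a split that was not tested. In sign, 15 genes had a log2 fold change above 0 and 15 below, with a median of 0.01 (all tested genes -0.0065).

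**Figure D1:**
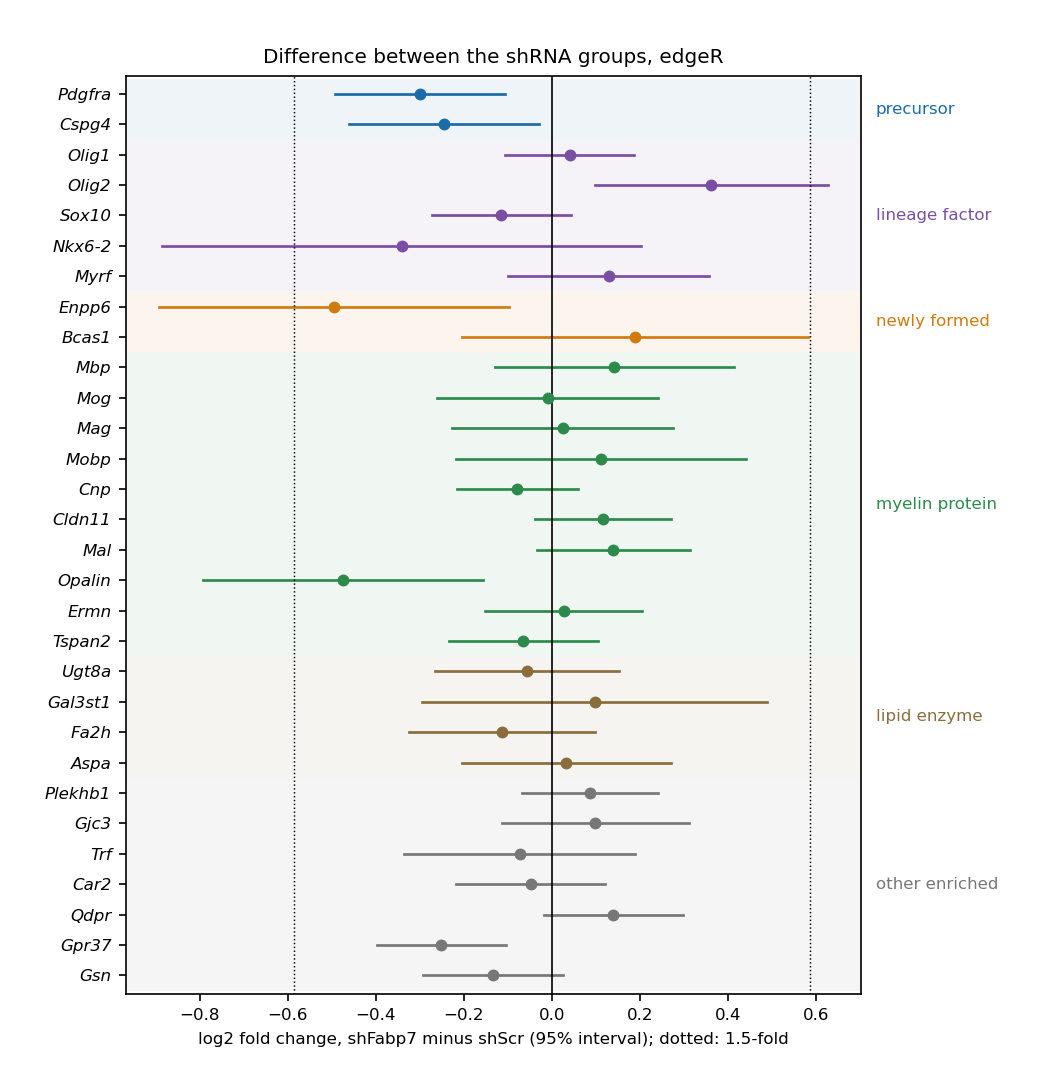
Log2 fold change, shFabp7 minus shScr, with its 95% interval for each of the 30 genes from edgeR (n = 3 libraries a group), coloured by role, with dotted lines at a 1.5-fold difference either way. Estimates ran from -0.49 for Enpp6 to 0.36 for Olig2, and 26 of 30 intervals lay within the dotted lines.

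The intervals of most genes were narrow. For 20 of the 21 mature genes (95.2%) the whole 95% interval lay within a 1.5-fold difference in either direction, against 61.3% of all tested genes. The exception was Opalin. Among the other 9 genes, the intervals of Olig2, Nkx6-2 and Enpp6 crossed 1 of those limits. The share varied among lists read further below. It was 66.7% for other mature oligodendrocyte genes, 100% for microglia markers, 90% for astrocyte markers and 10% for excitatory neuron markers. The genes compared were not matched for level, and low-count genes carry the larger errors.

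The 2 precursor genes both had lower values in shFabp7. Pdgfra encodes the PDGF receptor alpha and lies on chr5:75152292-75198215 (GRCm38, plus strand). It was at 77.5, 63.0 and 71.4 CPM in shScr libraries 1 to 3 and at 59.5, 52.8 and 59.8 CPM in shFabp7 libraries 1 to 3. Every shFabp7 value lay below every shScr value. Group means were 70.6 ± 7.29 and 57.4 ± 3.99 CPM (SD over 3 libraries), which gave a log2 fold change of -0.30 (SE 0.09, 95% interval -0.49 to -0.11). It did not pass the threshold in edgeR (adjusted p = 0.152) or in DESeq2 (adjusted p = 0.108).

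Cspg4 encodes the NG2 proteoglycan of precursors and pericytes and lies on chr9:56865033-56899870 (plus strand). Its values were 32.5, 29.3 and 28.0 CPM in shScr and 25.0, 23.0 and 27.7 CPM in shFabp7. The groups did not overlap, but shScr library 3 and shFabp7 library 3 nearly met. The log2 fold change was -0.24 (SE 0.10, 95% interval -0.46 to -0.03, edgeR adjusted p = 0.249).

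Pdgfra passed in edgeR in some alternatives. Without shScr library 2 its log2 fold change was -0.38 (adjusted p = 0.0292), and with no filter on low counts it was -0.30 (adjusted p = 0.00413). Many genes passed in the same fits, 865 of 17185 without shScr library 2 and 1617 with no filter. With the excitatory neuron score of each library as a covariate it was -0.15 (edgeR adjusted p = 0.677), and Cspg4 was at -0.13 (adjusted p = 0.812). That score was -0.82, 0.14 and -0.08 in shScr and 0.26, 0.35 and 0.16 in shFabp7. It did not overlap between the groups, so it cannot be fully told apart from group.

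Both precursor genes are also expressed outside the lineage, Pdgfra in meningeal and perivascular fibroblasts and Cspg4 in pericytes. Of the other 7 fibroblast markers listed, 6 had a log2 fold change below 0 and 1 above, with a median of -0.14. Their summed level was 154, 117 and 154 CPM in shScr and 122, 88.2 and 94.0 CPM in shFabp7, and all 3 shFabp7 sums but that of library 1 lay below every shScr sum. DESeq2 called 2 of these 7 genes, both lower, where 4.49% of the genes it tested passed. Among the 2 was Igf2, an insulin-like growth factor and the most abundant of the 7 (log2 fold change -0.66, edgeR adjusted p = 0.0597). Col1a2, a fibrillar collagen chain and defining fibroblast gene, was at 22.16 ± 3.58 and 22.03 ± 5.37 CPM. Pdgfrb, the PDGF receptor of pericytes, had a log2 fold change of 0.01, and the mural gene Rgs5 was at 0.27 (edgeR adjusted p = 0.970 and 0.163). They belong to a list of 10 endothelial and mural markers that went both ways, 5 above 0 and 5 below. Its log2 fold changes ran from -0.28 to 0.31, with a median of 0.0037. The part of fibroblasts in the Pdgfra values was not tested.

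Among the 5 lineage transcription factors, 3 had log2 fold changes above 0 and 2 below, with a median of 0.04. Olig1, a basic helix-loop-helix factor of the lineage, lies on chr16:91269772-91271933 (plus strand). It was at 96.5, 88.9 and 84.0 CPM in shScr and 89.96, 91.95 and 95.1 CPM in shFabp7. The groups overlapped, with shScr library 1 the highest of all 6. Its log2 fold change was 0.04 (SE 0.07, 95% interval -0.11 to 0.19, edgeR adjusted p = 0.802).

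Myrf, the membrane-bound factor that switches on myelin genes, lies on chr19:10208272-10240748 (minus strand). Its values were 63.7, 78.7 and 60.2 CPM in shScr and 69.0, 74.5 and 78.0 CPM in shFabp7. The highest library was in the shScr group. It had a log2 fold change of 0.13 (SE 0.10, 95% interval -0.10 to 0.36, edgeR adjusted p = 0.558).

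Olig2, Olig1's neighbour on chr16:91225550-91228677 (plus strand) and a factor that specifies the lineage, was singled out after its values were seen. It was at 22.6, 26.0 and 22.2 CPM in shScr and 35.7, 27.0 and 28.3 CPM in shFabp7. All 3 shFabp7 values were higher, by a wide margin in library 1 and by a narrow one between shFabp7 library 2 and shScr library 2. The log2 fold change was 0.36 (SE 0.12, 95% interval 0.10 to 0.63, edgeR adjusted p = 0.187), and without shFabp7 library 1 it was 0.23. Olig2 is also expressed in some astrocytes.

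Per 100 reads of Olig1, the libraries held 23.4, 29.2 and 26.4 reads of Olig2 in shScr and 39.7, 29.4 and 29.8 in shFabp7. The ratio therefore hardly separated shScr library 2 from shFabp7 libraries 2 and 3. Per 100 reads of Sox10 there were 53.1, 60.2 and 50.1 reads of Olig2 in shScr and 87.7, 71.5 and 68.0 in shFabp7. This second ratio could not overlap between the groups, so its separation adds nothing. Olig2 was higher and Sox10 lower in every shFabp7 library than in every shScr library. Both ratios were formed after the values were seen. Sox10, a factor of precursors and mature cells alike on chr15:79154913-79164490 (minus strand), was at 42.7, 43.1 and 44.3 CPM against 40.8, 37.8 and 41.6 CPM. Its groups did not overlap, but the difference was small, with a log2 fold change of -0.11 (SE 0.07, edgeR adjusted p = 0.441); it too was chosen after its values were seen. Nkx6-2, a homeobox factor of myelinating cells, was at -0.34 (SE 0.24, edgeR adjusted p = 0.505). That estimate rested on shScr library 1, at 15.4 CPM against 7.66 to 10.1 CPM in the other 5, and was -0.02 without it. Part of Nkx6-2 (246 bases of exon) overlaps Inpp5a on the opposite strand, whose reads may be mixed with its own, since no source used here says whether counting used strand.

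The 2 newly formed oligodendrocyte genes had estimates of opposite sign. Enpp6, a choline-specific phosphodiesterase, lies on chr8:46986887-47096762 (plus strand). It was the least abundant of the 30 genes, with 101, 108 and 124 reads in shScr and 72, 59 and 91 in shFabp7. These gave 5.50, 5.74 and 6.77 CPM against 4.30, 3.59 and 4.86 CPM. Every shFabp7 library lay below every shScr library, and the log2 fold change was -0.49 (SE 0.18, 95% interval -0.89 to -0.10, edgeR adjusted p = 0.213).

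Bcas1, a protein of newly formed and early myelinating cells, lies on chr2:170346991-170427845 (minus strand). It was at 122, 184 and 137 CPM in shScr and 148, 174 and 183 CPM in shFabp7. The lowest and the highest of all 6 libraries were both in the shScr group. The log2 fold change was 0.19 (SE 0.16, 95% interval -0.20 to 0.58, edgeR adjusted p = 0.606), and with the neuron score as a covariate it was -0.05. Per 100 reads of Bcas1 the libraries held 4.50, 3.13 and 4.93 reads of Enpp6 in shScr and 2.90, 2.06 and 2.66 in shFabp7. This ratio did not overlap between the groups, and it was formed after the values were seen, with a smallest possible two-sided exact p of 0.1 for 3 against 3.

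**Figure D2:**
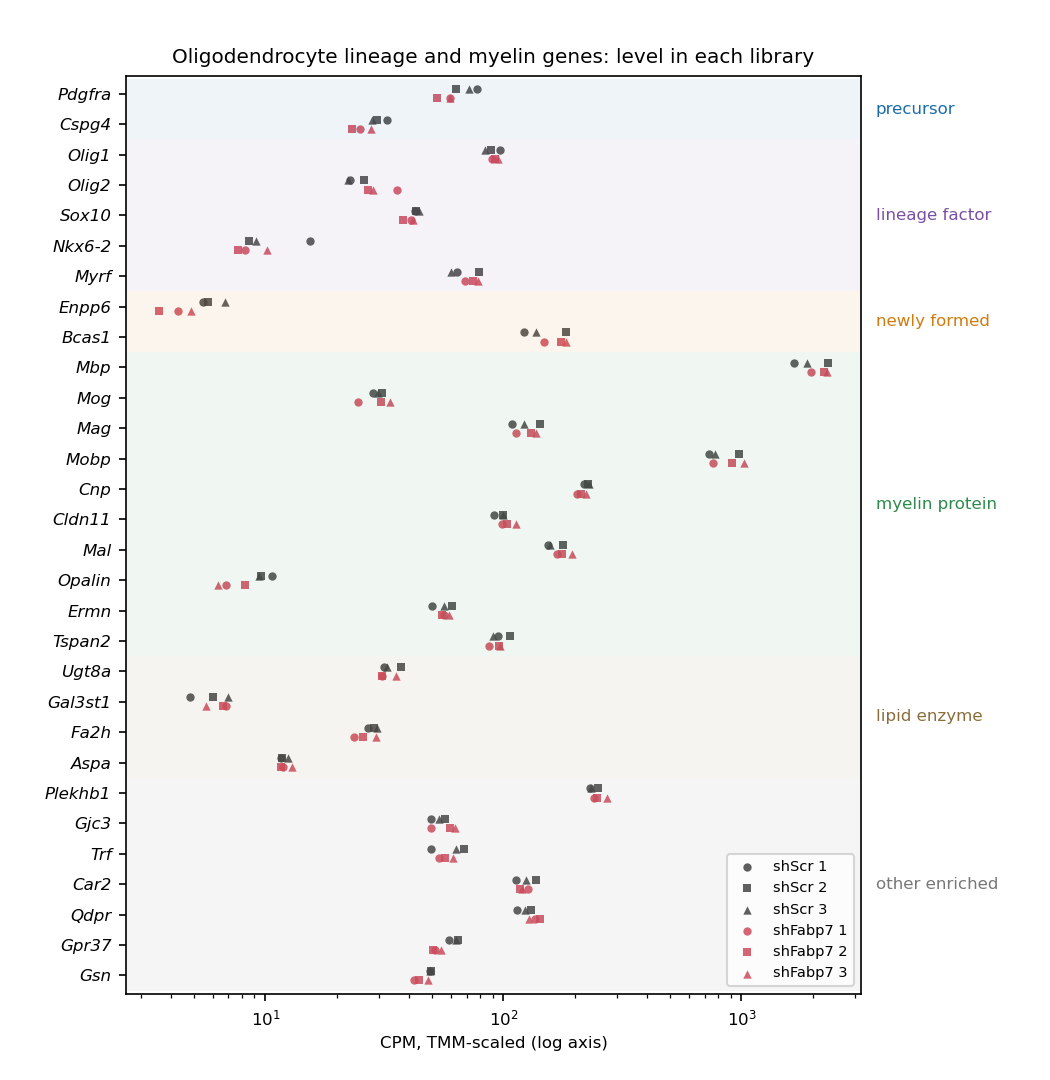
CPM of each of the 30 genes in every library on a log axis, with shScr libraries in grey and shFabp7 libraries in red and the marker shape giving the replicate number. The abundant myelin genes overlap between groups, from 1665 to 2301 CPM for Mbp in shScr and 1953 to 2280.3 CPM in shFabp7. Pdgfra, Cspg4, Sox10, Enpp6, Opalin, Gpr37 and Gsn lie lower in all 3 shFabp7 libraries than in every shScr library, and Olig2 lies higher.

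Of the 10 myelin protein genes, 6 had a log2 fold change above 0 and 4 below, with a median of 0.03. Mbp, myelin basic protein, which binds the inner faces of the compacted membrane, lies on chr18:82475146-82585637 (plus strand). It was at 1665, 2301 and 1886 CPM in shScr and 1953, 2223 and 2280.3 CPM in shFabp7. shScr libraries 1 and 2 were the lowest and the highest of all 6. The means were 1950.3 ± 323 and 2152 ± 175 CPM, a log2 fold change of 0.14 (SE 0.12, 95% interval -0.13 to 0.41, edgeR adjusted p = 0.583).

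Mobp, a small basic protein of compact myelin, lies on chr9:120149707-120181484 (plus strand). It was at 733, 981 and 777 CPM in shScr and 759, 913 and 1021 CPM in shFabp7. The groups overlapped through most of their range. Its log2 fold change was 0.11 (SE 0.14, 95% interval -0.22 to 0.44, edgeR adjusted p = 0.737). For both genes the sign depended on the neuron score: with it as a covariate Mbp was at -0.05 and Mobp at -0.04. That score did not overlap between the groups.

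The 7 further myelin protein genes apart from Opalin had estimates between -0.08 and 0.14, with adjusted p-values of 0.395 to 0.979 in edgeR. Mag, a lectin of the innermost membrane, was at 0.02 and Mog, a protein of the outermost lamella, at -0.01. Cnp, an enzyme of the channels through the sheath, was at -0.08 and Cldn11, which forms its tight junctions, at 0.12. Mal, a raft proteolipid, was at 0.14 and Ermn, a cytoskeletal protein, at 0.03. The tetraspanin Tspan2 was at -0.06. None of the 7 passed the test, and all 7 overlapped between the groups.

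Opalin, a transmembrane glycoprotein of the myelin sheath on chr19:41062474-41077113 (minus strand), was chosen after its values were seen as the myelin protein gene with the largest difference. It was at 10.7, 9.63 and 9.39 CPM in shScr and 6.81, 8.21 and 6.35 CPM in shFabp7. The groups were separate, with a clear step between the highest shFabp7 and the lowest shScr value. The log2 fold change was -0.47 (SE 0.14, 95% interval -0.79 to -0.16, edgeR adjusted p = 0.162, DESeq2 adjusted p = 0.139). Mog is a surface protein of the same mature cells, and per 100 of its reads the libraries held 37.7, 31.0 and 31.7 reads of Opalin in shScr and 27.9, 26.8 and 19.1 in shFabp7. The order of the groups was the same in this ratio, and it too was formed after the values were seen.

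The 4 lipid enzyme genes were split evenly around 0, with a median log2 fold change of -0.01. Ugt8a makes galactosylceramide, the main glycolipid of myelin, and was at 31.6, 37.2 and 32.4 CPM in shScr and 30.9, 31.0 and 35.4 CPM in shFabp7. Its groups overlapped (log2 fold change -0.06, SE 0.09, edgeR adjusted p = 0.801). Fa2h, which adds the hydroxyl group to the fatty acid of that lipid, was at 26.9, 28.6 and 29.3 CPM against 23.6, 25.6 and 29.1 CPM (log2 fold change -0.11, SE 0.09, edgeR adjusted p = 0.576). Here shFabp7 library 3 lay among the shScr libraries. Gal3st1, which sulfates galactosylceramide, was at 0.10 and Aspa, which frees acetate from N-acetylaspartate, at 0.03. All 4 intervals lay within a 1.5-fold difference.

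Of the 7 other oligodendrocyte-enriched genes, 3 had a log2 fold change above 0 and 4 below, with a median of -0.05. Plekhb1, a membrane-associated protein with a pleckstrin homology domain, was at 231, 249 and 234 CPM in shScr and 239, 247 and 272 CPM in shFabp7 (log2 fold change 0.09, SE 0.07, edgeR adjusted p = 0.566). Qdpr, which regenerates tetrahydrobiopterin, was at 114, 131 and 123 CPM against 135, 143 and 128 CPM (log2 fold change 0.14, SE 0.07, edgeR adjusted p = 0.345). Both overlapped between the groups. Gjc3, a glial connexin, was at 0.10 and Car2, carbonic anhydrase 2, at -0.05. Trf, transferrin, was at -0.07, an uncertain value because 63.5% of its exon bases are shared with Gm20425 on the same strand.

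Gpr37, a receptor of maturing oligodendrocytes on chr6:25665878-25690729 (minus strand), had the lowest adjusted p of the 30 genes in edgeR, while Pdgfra had it in DESeq2. It was at 59.2, 64.4 and 63.4 CPM in shScr and 51.4, 50.8 and 54.8 CPM in shFabp7. Each group was tight, and the groups did not overlap. The log2 fold change was -0.25 (SE 0.07, 95% interval -0.40 to -0.10), which did not pass in edgeR (adjusted p = 0.126) or in DESeq2 (adjusted p = 0.121). Gsn, the actin-severing protein gelsolin, was at 49.1, 49.7 and 49.0 CPM against 42.3, 44.2 and 48.3 CPM (log2 fold change -0.13, SE 0.07, edgeR adjusted p = 0.376). Its groups were separate by a narrow gap, and both genes were chosen after their values were seen.

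Scaled by exon length, as CPM per kilobase of exon (RPKM), the most abundant of the 30 genes were Mbp and Mobp, of compact myelin. Mbp stood first at 244 ± 30.6 RPKM (SD over all 6 libraries) and Mobp second at 126 ± 18.0 RPKM. Their values did not overlap. Qdpr at 72.1 ± 5.53, Plekhb1 at 66.1 ± 3.97, Mal at 61.5 ± 5.31 and Cnp at 60.0 ± 2.66 RPKM followed, and the ranges of neighbours in that run overlapped. The precursor genes were far lower, with Pdgfra at 6.39 ± 0.893 and Cspg4 at 2.31 ± 0.277 RPKM. The last place was held by Enpp6 at 0.799 ± 0.175 RPKM.

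The mature genes shared an order of libraries within each group. shScr library 1 was the lowest of the 3 shScr libraries for 18 of 21 mature genes, against 36.2% of all tested genes. It was the lowest of all 6 libraries for 12 of 21, against 24.6% of all tested genes. shScr library 2 was the highest of its group for 15 of 21, against 33.6% of all tested genes. shFabp7 library 3 was the highest of its group for 17 of 21, against 31.9%. The shScr order was not particular to these genes. Library 1 was lowest and library 2 highest of shScr for 10 and 8 of 10 endothelial and mural markers. Both counts were 8 of 10 for excitatory neuron markers, and they were 18 and 15 of 30 for other mature oligodendrocyte genes. shFabp7 library 3 was highest of its group for 2 of 10, 0 of 10 and 18 of 30 in these 3 lists. These libraries were not alike in other markers: shScr library 1 had the lowest excitatory neuron sum, and shScr library 1 and shFabp7 library 3 had the highest striatal sums. The part of tissue makeup in the spread of the mature genes was not tested.

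**Figure D3:**
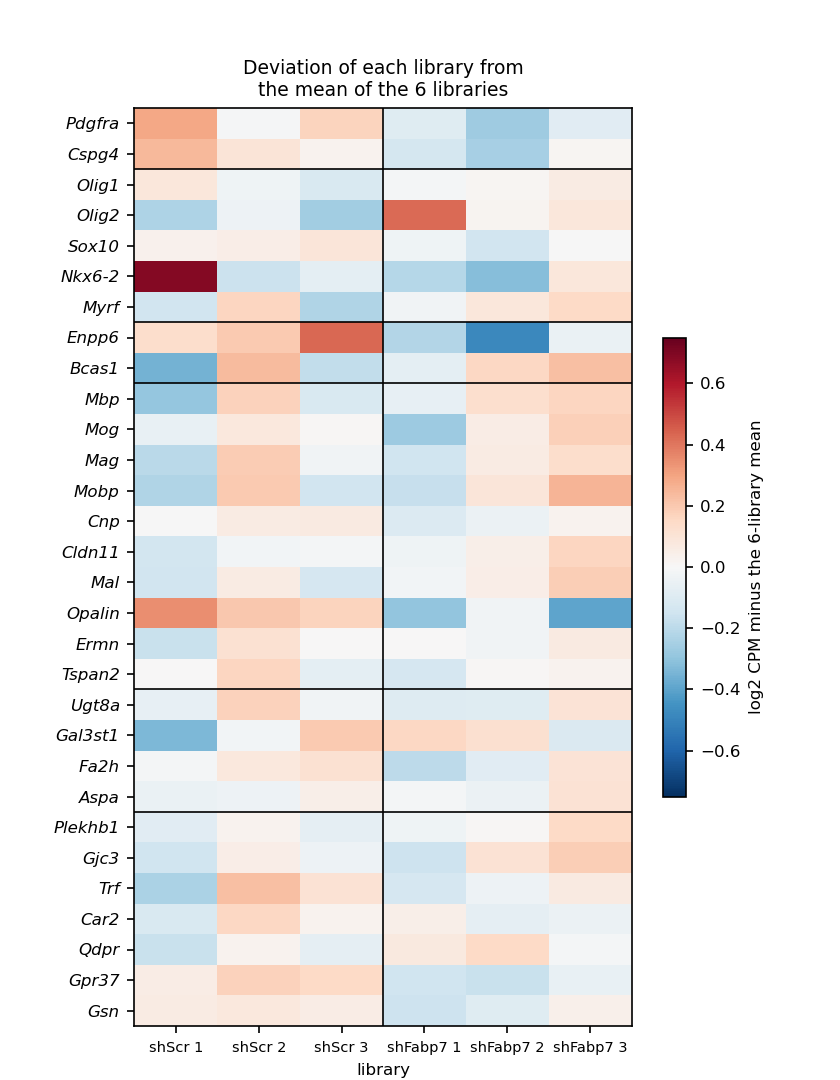
Log2 CPM of each gene in each library minus its mean over the 6 libraries, from blue (lower) to red (higher), with lines between the role groups and between shScr and shFabp7. shScr library 1 is the lowest of all 6 libraries for 12 of 21 mature genes, while both precursor genes are highest there.

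The precursor genes had another order of libraries. Pdgfra and Cspg4 were both highest in shScr library 1, where most mature genes were low, and both lowest in shFabp7 library 2. The mean log2 CPM of the mature genes minus that of the precursor genes was 0.48, 0.91 and 0.76 in shScr and 0.87, 1.11 and 0.94 in shFabp7. The means were 0.72 ± 0.21 and 0.97 ± 0.12 (SD, n = 3 each), and the groups overlapped because shScr library 2 lay above shFabp7 library 1. In reads, Pdgfra stood at 4.66, 2.74 and 3.79 per 100 reads of Mbp in shScr and at 3.05, 2.37 and 2.62 in shFabp7. This ratio overlapped as well, again through shScr library 2.

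The upstream sequence of 4 genes is shown to set a highly expressed myelin gene (Mobp) beside 3 with separate groups: a mature gene (Opalin), a newly formed one (Enpp6) and a precursor one (Pdgfra). Each is the 250 bases before the RefSeq transcription start (GRCm38.p6), read on the gene's strand. Capitals mark the letters ACAAAG or ACAATG, the core bound by SOX proteins such as Sox10, on either strand. The windows lie on chr9:120149492-120149741 (plus) for Mobp, chr19:41077114-41077363 (minus) for Opalin, chr8:46986637-46986886 (plus) for Enpp6 and chr5:75152001-75152250 (plus) for Pdgfra.
Mobp: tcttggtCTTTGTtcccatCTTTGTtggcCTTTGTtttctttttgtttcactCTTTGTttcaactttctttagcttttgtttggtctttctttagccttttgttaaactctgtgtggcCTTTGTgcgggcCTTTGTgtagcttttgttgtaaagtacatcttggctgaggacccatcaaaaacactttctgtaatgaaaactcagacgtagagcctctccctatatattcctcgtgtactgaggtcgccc
Opalin: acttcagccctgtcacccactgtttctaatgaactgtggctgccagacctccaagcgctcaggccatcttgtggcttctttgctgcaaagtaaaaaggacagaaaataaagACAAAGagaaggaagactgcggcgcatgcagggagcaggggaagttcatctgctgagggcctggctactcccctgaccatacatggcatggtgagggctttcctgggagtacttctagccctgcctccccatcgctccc
Enpp6: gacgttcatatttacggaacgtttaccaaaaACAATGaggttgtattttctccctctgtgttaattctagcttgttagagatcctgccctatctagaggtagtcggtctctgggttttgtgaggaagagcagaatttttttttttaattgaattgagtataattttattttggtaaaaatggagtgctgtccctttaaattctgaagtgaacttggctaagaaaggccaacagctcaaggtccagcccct
Pdgfra: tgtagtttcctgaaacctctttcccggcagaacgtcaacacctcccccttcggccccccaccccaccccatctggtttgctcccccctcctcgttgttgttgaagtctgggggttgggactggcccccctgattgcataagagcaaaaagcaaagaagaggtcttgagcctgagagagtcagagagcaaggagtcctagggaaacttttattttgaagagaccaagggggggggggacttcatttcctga
The Mobp window held the SOX letters 6 times, those of Opalin and Enpp6 held them 1 time each, and that of Pdgfra did not hold them. Mobp was an exception, as no window of another member held them more than 1 time. Among other abundant mature genes, the windows of Qdpr, Mal and Cldn11 did not hold them, and that of Cnp held them 1 time. Plekhb1 held them 1 time in its window on chr7:100656966-100657215 and not in that on chr7:100662395-100662644. RefSeq windows were found for 22 of the 30 genes, 30 windows in all. Some windows of Mag and of Gal3st1 overlap, so the same letters are counted more than once. The SOX letters were in 12 of these 30 (40.0%), from 10 genes, and in 25.2% of all 32851 windows of that length. The letters CTGGCAC or CTGGTAC, a core of the MYRF motif, were in 4 of 30 (13.3%), from 3 genes, and in 5.93% of all windows. The E-box CAGCTG, of the kind bound by Olig proteins, was in 3 of 30 and in 13.0% of all. Both strands were searched, and neither the MYRF nor the E-box letters occurred in the 4 windows shown. A match is a description of letters and not a bound site.

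Further genes of each stage and of the signals that act on them were read from 4 lists, and none of their tested genes passed in edgeR. Of 12 other precursor genes, 4 had log2 fold changes above 0 and 8 below, with a median of -0.14. In edgeR 2 were higher and 2 lower at an unadjusted p under 0.05, and DESeq2 called 0. These 4 of 12 made 33.3%, against 16.8% of all tested genes. Ptprz1, a receptor phosphatase shared with astrocytes, was at -0.08 (edgeR adjusted p = 0.737), and Dscam, an adhesion molecule also made by neurons, at 0.21 (adjusted p = 0.214). Neu4, a sialidase of precursors chosen after its values were seen, was at 7.18, 7.34 and 7.31 CPM in shScr and 10.2, 9.91 and 10.1 CPM in shFabp7. Its groups were tight and separate, in the opposite direction to Pdgfra and Cspg4, and it did not pass in edgeR (log2 fold change 0.47, SE 0.12, adjusted p = 0.118).

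Of 12 other genes of newly formed cells, 5 were above 0 and 7 below, with a median of -0.04. In edgeR 2 were higher and 3 lower at an unadjusted p under 0.05, and DESeq2 called 1. That was 41.7% of the 12 in edgeR, against 16.8% of all tested genes, and 1 of 12 in DESeq2, against 4.49%. The called gene, Nfasc, the adhesion molecule neurofascin of glial and neuronal contact sites, was at 304 ± 15.6 CPM in shScr and 372 ± 20.7 CPM in shFabp7. It rose in DESeq2 (adjusted p = 0.0165) and not in edgeR (log2 fold change 0.29, SE 0.07, adjusted p = 0.108), and it is also expressed by neurons. Fyn, a kinase of early myelination, was at -0.02 (edgeR adjusted p = 0.892).

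Of 30 other mature genes, 14 were above 0 and 16 below, with a median of -0.0034. At an unadjusted p under 0.05 edgeR had 4 higher and 4 lower, or 26.7% against 16.8% of all tested genes. DESeq2 called 2 of these 30 genes, where 4.49% of all passed. Ptgds, a prostaglandin D synthase also made by meninges and choroid plexus, fell in DESeq2 (adjusted p = 0.00597), from 767 ± 146 to 545 ± 34.8 CPM, and was at -0.49 in edgeR (SE 0.13, adjusted p = 0.142). Enpp2, autotaxin, which choroid plexus also makes, rose in DESeq2 (adjusted p = 0.0174) and was at 0.44 in edgeR (SE 0.13, adjusted p = 0.166). The latter was named after its values were seen.

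Of 20 genes for signals and receptors that act on the lineage, 19 were tested, 8 above 0 and 11 below, with a median of -0.05. At an unadjusted p under 0.05 edgeR had 2 higher and 5 lower, or 36.8% against 16.8% of all tested genes, and DESeq2 called 2, where 4.49% of all passed. The groups did not overlap for 8 of 19 (42.1%), against 22.9% of all tested genes. Lingo1, a brake on differentiation that neurons also express, was at 0.25 (edgeR adjusted p = 0.350), and Fgfr3, a growth factor receptor shared with astrocytes, at 0.15 (adjusted p = 0.257). Named after their values were seen, Hes5 fell and Igf1r rose in DESeq2 alone. Hes5, a Notch target that holds progenitors undifferentiated and is also expressed by astrocytes, was at 16.8, 14.2 and 12.6 CPM in shScr and 10.6, 7.54 and 8.27 CPM in shFabp7 (DESeq2 adjusted p = 0.00691, edgeR adjusted p = 0.0868). Its groups were separate. Igf1r, the IGF-1 receptor, had a log2 fold change of 0.37 (DESeq2 adjusted p = 0.0336, edgeR adjusted p = 0.139).

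**Figure D4:**
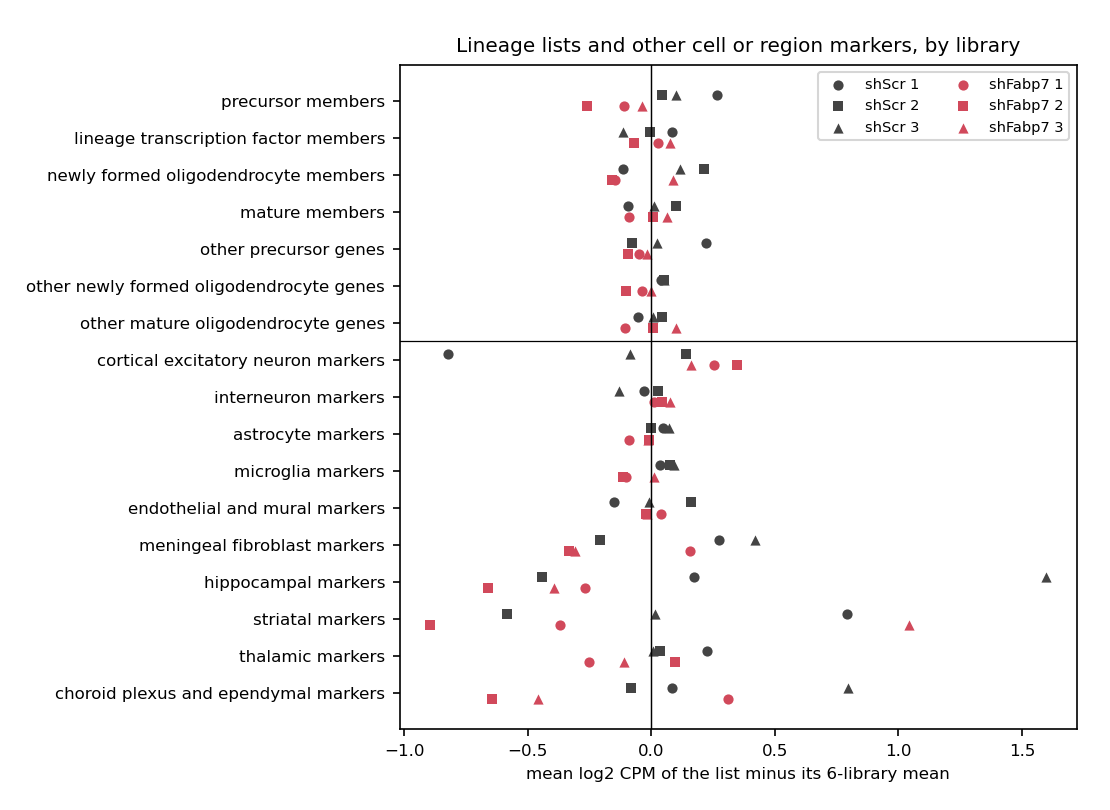
Mean log2 CPM of each list in each library minus its mean over the 6 libraries, with lineage lists above the line and markers of other cells or regions below it (shScr grey, shFabp7 red, shape by replicate). The mature genes are lowest in shScr library 1, at -0.0942, nearly level with shFabp7 library 1 at -0.0898. The other mature oligodendrocyte genes are lowest in shFabp7 library 1, at -0.105, against -0.0526 in shScr library 1. The 10 excitatory neuron markers are lowest in shScr library 1, at 4152 CPM in sum.

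No gene among the markers of other cells and regions passed in edgeR, and no list was tested as a whole. All 10 excitatory neuron markers had log2 fold changes above 0, with a median of 0.40. DESeq2 called 3 of them (30%), where 4.49% of the genes it tested passed. For 8 of the 10, shScr library 1 was the lowest of all 6 libraries, against 24.6% of all tested genes. The 10 astrocyte markers went both ways, 5 above and 5 below 0, and 7 of them had an unadjusted p under 0.05 in edgeR (against 16.8% of all tested genes). The largest difference among them was that of Gfap, the astrocyte filament protein, at 267 ± 39.1 CPM in shScr and 154 ± 18.1 CPM in shFabp7 (log2 fold change -0.79, SE 0.12, edgeR adjusted p = 0.0597, DESeq2 adjusted p = 1.36e-07). Of 10 microglia markers, 8 were below 0, with a median of -0.15. DESeq2 called 2 of the 10, both lower, and the groups did not overlap for 5 (22.9% of all tested genes). Of 6 choroid plexus and ependymal markers tested, 5 were below 0, with a median of -0.56. In edgeR 3 of the 6 were lower at an unadjusted p under 0.05 (50%, against 16.8% of all tested genes). DESeq2 called 1 of the 6, lower, where 4.49% of the genes it tested passed. The groups overlapped for all 6. Their part in the values of the lineage genes was not tested.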

How the data were processed

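RNA of mouse cortex was sequenced in 6 libraries from 0.5 ug of total RNA each by a stranded mRNA protocol (per the labels' protocols), and groups and replicate numbers came from the sample titles. The deposited tables hold raw read counts per gene, not normalized, with columns laid out as featureCounts writes them (per the file headers, which name no tool). GRCm39 is the build in the submitters' processing notes, which also list STAR 2.5.2b, Trimmomatic 0.36, DESeq2 and Subread 1.5.2 without saying what each did. Gene positions fitted GRCm38: of 49056 gene IDs found in GENCODE M21, 44858 (91.4%) had the same chromosome, start and end. No source used here gives the strand setting of the counting.

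Genes were filtered with filterByExpr, which left 17185. edgeR's quasi-likelihood test (edgeR 4.0.16, R 4.3.3, TMM factors, robust fit, group alone, two-sided) was adjusted by Benjamini-Hochberg over all of them, with a threshold of 0.05. Intervals are at 95% and unadjusted. CPM are scaled by TMM, and RPKM divide them by the exon length in kilobases. Low-count genes carry the larger errors. Scripts were tested on simulated data. No library was a copy of another (chi-square per degree of freedom 5.84 to 32.7).

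Values in every library were to be given for each gene past the threshold and for the 2 with the highest mean CPM in each role group. In the further lists they were to be given for up to 4 genes past the threshold, or else the 2 highest. Other genes named were chosen after their values were seen. A gene of the further lists is not reported here. The members and lists were chosen with earlier results of these data known. Alternatives were upper-quartile or RLE factors, DESeq2 1.42.0, a filter at 1 CPM in at least 3 samples or none, limma-voom with quality weights (limma 3.58.1), a replicate block, sex, the excitatory neuron score, a threshold of 0.1 and each library left out. Sex was read from Xist and Y-linked genes, and the neuron score is the mean log2 CPM of the 10 excitatory neuron markers minus its mean over the libraries.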

Additional observations from a re-analysis of the deposited data

How the results depend on the processing

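Genes called in edgeR numbered 20, against 696 in DESeq2, 1617 with no filter, 109 in limma-voom, 7 with sex and 43 with the neuron score as a covariate, and 292 at a threshold of 0.1. Leaving out 1 library gave 0 to 865 (0 without shFabp7 library 2 or 3, 7 without shFabp7 library 1, 184 without shScr library 1, 865 without shScr library 2). Of the 30 lineage genes, 3 were called with no filter (Pdgfra, Olig2 and Gpr37, adjusted p = 0.00413, 0.0123 and 0.0320), and leaving out 1 library gave 0 to 1, the 1 being Pdgfra without shScr library 2. With the replicate number as a block, 629 genes were called, and 1 of the 30, Pdgfra (adjusted p = 0.0489). The numbers are not shown to pair the samples: same-numbered libraries' deviations from their group means correlated at 0.0808, 0.154 and 0.0573, and shScr library 1 correlated best with shFabp7 library 3, at 0.0989. With the neuron score the median of the precursor genes was -0.14 and that of the mature genes -0.11. The score did not overlap between the groups, so it cannot be fully told apart from group. Of 450 values of single genes under alternatives, 20 changed sign, over 14 genes. With the neuron score these were Nkx6-2 at 0.19, Bcas1 at -0.046, Mbp at -0.054, Mobp at -0.041, Mag at -0.14, Ermn at -0.098 and Gal3st1 at -0.12, and with sex Mag at -0.014. The others came from leaving out 1 library, with these ranges: Olig1 -0.0059 to 0.096, Mog -0.11 to 0.11, Mag -0.064 to 0.13, Ermn -0.045 to 0.096, Tspan2 -0.12 to 0.0048, Ugt8a -0.13 to 0.020, Gal3st1 -0.030 to 0.23, Aspa -0.015 to 0.062, Trf -0.19 to 0.027 and Car2 -0.11 to 0.023. Pdgfra, Cspg4, Enpp6, Opalin, Gpr37 and Olig2 kept their sign in all 15 alternatives that gave a value. The cause of these shifts was not tested. Depth limits Enpp6 most, with 59 to 124 reads per library.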
